A study of Mus musculus with 33 samples.

Results

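The collagen genes are those whose symbol in the annotation of the array platform used for 30 of the 33 arrays is Col, a number, the letter a and a number. The rule picked 37 genes on 59 probes, of 16593 named genes on that platform. By the kind of structure their chains build, 11 were grouped as fibrillar, 6 as basement membrane and 20 as other collagens. A gene counted as measured where its detection p was under 0.05 on at least 3 of the 30 arrays. Of the 37 collagens, 27 passed, namely 9 fibrillar, 4 basement membrane and 14 other genes, among 10614 measured genes in all. The 10 that did not pass were Col5a3 and Col27a1 (fibrillar), Col4a3 and Col4a4 (basement membrane) and Col6a6, Col8a2, Col9a3, Col13a1, Col14a1 and Col23a1 (other), and 6 of them were detected on no array.

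RNA was measured on mouse Illumina bead arrays in 11 groups of 3 arrays. RepSox, a small molecule, inhibits the type I receptor kinase through which TGF-beta signals. The groups were fibroblasts (mouse embryonic fibroblasts, MEF) given RepSox for 1 week and untreated fibroblasts with no stated time; OKMS6 cells with RepSox and untreated OKMS6 cells at 10, 24 and 48 h; an induced pluripotent stem (iPS) line for whose derivation RepSox stood in for viral Sox2; and the embryonic stem cell lines R1 and V6.5. OKMS6 is a single partially reprogrammed line from virally transduced fibroblasts, and all OKMS6 groups, treated or not, are labelled as carrying viral Sox2. The Sox2 probe was detected on 2 of 9 RepSox-treated and 3 of 9 untreated OKMS6 arrays, on 0 of 6 fibroblast arrays and on 3 of 3 R1 arrays. Its mean level was 4.84, 4.56 and 4.59 in RepSox-treated OKMS6 cells and 4.97, 4.65 and 4.58 in untreated OKMS6 cells at 10, 24 and 48 h, against 4.61 in untreated fibroblasts, and no label or file says whether it reads the viral transcript. Some cultures grew on irradiated fibroblast feeders and some without, and the medium held either fetal bovine serum or a replacement for it. The labels do not say which culture had what, and no strain or age is given. Whether replicates came from different cultures is not stated either, and the p-values reflect array-to-array spread, possibly technical, and no more.

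Collagens are the main proteins of the extracellular matrix. Their chains wind around each other into long helices inside the cell, after prolyl and lysyl residues have been hydroxylated. Fibrillar collagens (types I, II, III, V, XI and relatives) then lose their end propeptides and pack into crosslinked fibrils, whereas type IV chains form the sheet-like network of basement membranes. Fibroblasts are the classic source of fibrillar collagen, and TGF-beta is a well known inducer of collagen production in them. Type IV collagen, by contrast, is laid down early in the mouse embryo by cells next to the pluripotent lineage.

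Levels are normalized log2 intensities, which can be compared between arrays for 1 probe and not between probes. A gene was called at an adjusted p under 0.05 in limma, with Benjamini-Hochberg adjustment over all measured genes. Mean scanner signal was 94.92 to 113.1 on the fibroblast arrays, 146.9 to 327.1 on the OKMS6 arrays and 373.6 to 429.2 on the R1 arrays, and the number of arrays limits the precision. In V6.5, replicates 1 and 3 had mean signals of 66.6 and 79.5, against 329.3 in replicate 2, and these arrays entered no test. Replicate 3 of the RepSox-treated fibroblasts stood apart from replicates 1 and 2 in several collagens. In the deposited processed table, the columns of replicate 3 of RepSox-treated and untreated OKMS6 cells at 48 h match each other's scanner columns. No label settles which names are right. Under scanner names, arrays within these groups correlated at 0.994 to 0.997 (RepSox) and 0.993 to 0.996 (untreated) over detected probes. Each exchanged column had a rank correlation of 0.931 over all probes with the scanner column that bears its name. That is another measure over other probes, and it cannot be compared with the values within groups. Scanner names are used, and the collagen and pathway counts at 48 h are also given without both arrays. A lower level in these bulk samples cannot tell fewer cells of a type apart from less RNA per cell.

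**Figure D1:**
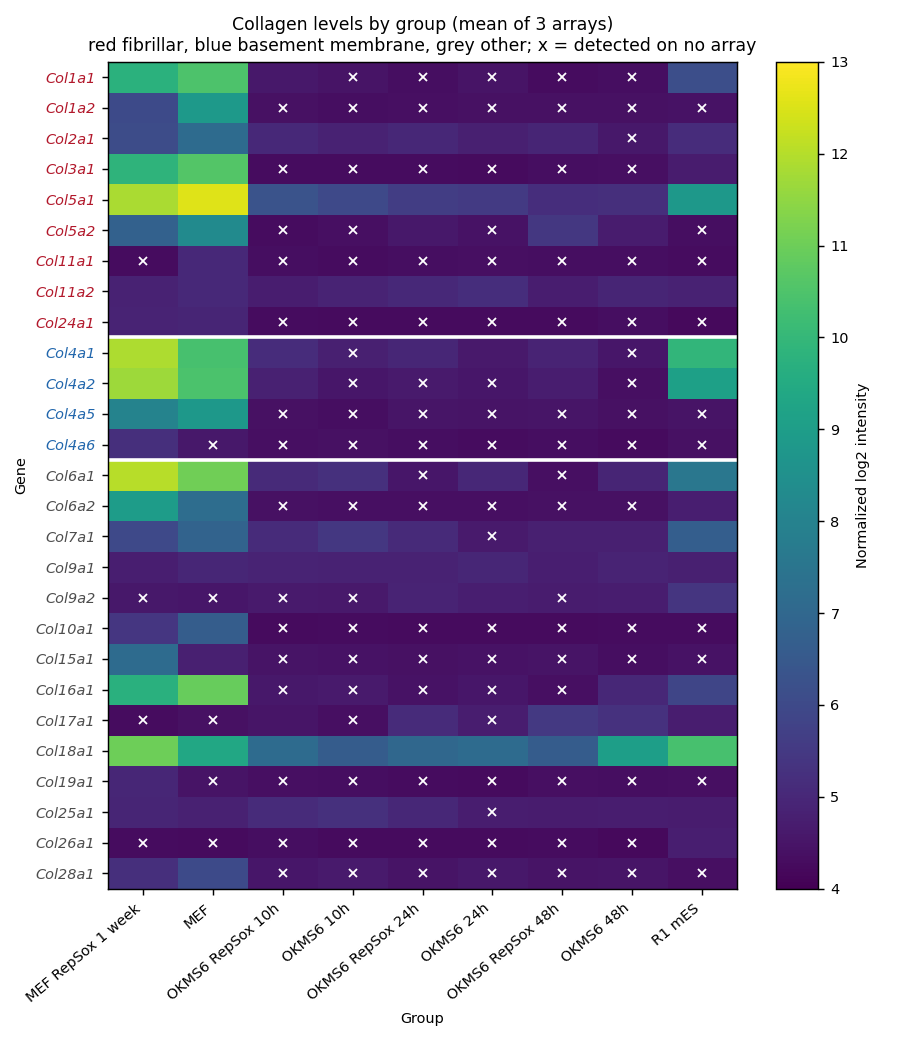
Mean normalized log2 intensity (colour) of the 27 measured collagens (rows, by class) in 9 groups (columns), with a cross where no array of the group detected the gene. Colours compare groups within a row. The fibroblast columns stand out for most fibrillar genes, and Col18a1 is detected in every column.

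Fibroblasts detected most of the measured collagens and OKMS6 cells few. Of the 27, RepSox-treated fibroblast arrays detected 22 or 23 and untreated fibroblast arrays 19 to 22, RepSox-treated OKMS6 arrays 6 to 10 and untreated OKMS6 arrays 5 to 9, and R1 arrays 12 to 17. Every fibroblast array detected 9 of 9 measured fibroblast markers, but every R1 array also detected 8 of these 9. The label of the fibroblasts was borne out by the summed linear level of these markers. It was 13670 to 19970 with RepSox and 10790 to 11770 in untreated fibroblasts, against 1153 to 1346 in R1. The stem cell label of R1 was likewise borne out, with 10 of 10 embryonic stem cell markers detected on every R1 array. OKMS6 arrays detected 5 to 9 of these 10.

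Fibroblasts given RepSox for 1 week had less fibrillar collagen RNA and more RNA for the common chains of basement membranes. Of 27 measured collagens, 19 were called, 8 higher and 11 lower, against 28.3% of all genes (12.8% higher and 15.5% lower). Of all genes called 45.2% rose, and 59.1% with median scaling, which left the collagen counts at 8 and 11. Among fibrillar genes 6 of 9 fell and 0 rose, with a median log2 change of -0.73, whereas the median over all genes was -0.02. Among basement membrane genes 3 of 4 rose and 1 fell, and among the other collagens 5 of 14 rose and 4 fell. The count was 19 to 20 when any 1 array of the groups compared was left out. Col4a6 and Col19a1 were detected in RepSox-treated fibroblasts alone and Col11a1 in untreated fibroblasts alone, so these 3 passed the detection filter only through the group where they were high. Without them 16 of 24 were called, 6 higher and 10 lower, and neither count is support for a direction.

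**Figure D2:**
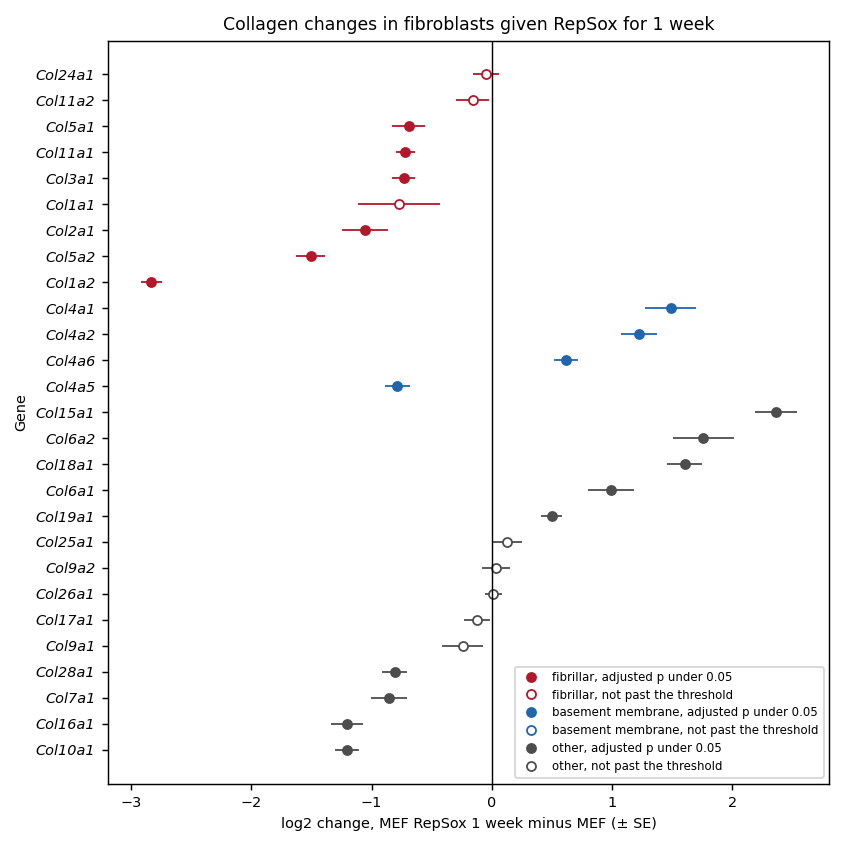
Log2 change of each measured collagen in fibroblasts given RepSox for 1 week relative to untreated fibroblasts (points, bars ± SE, 3 arrays a group), by class, filled where the adjusted p was under 0.05. All 9 fibrillar points lie below 0, from -2.83 to -0.05, and basement membrane points run from -0.79 to 1.49.

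Type I collagen, the bulk fibril of skin, bone and tendon, is built from Col1a1 and Col1a2 chains. Col1a2 read 6.05, 6.15 and 5.90 in RepSox-treated fibroblasts, against 8.74, 8.93 and 8.92 in untreated fibroblasts. Every treated array lay far below every untreated one, and the change of -2.83 ± 0.09 (SE; 7.11-fold lower; adjusted p = 9.49e-19) was the largest among the fibrillar genes. Col1a1 read 8.84, 9.05 and 11.31 in RepSox-treated fibroblasts, against 10.25, 10.57 and 10.69 in untreated fibroblasts. Replicates 1 and 2 were below all untreated arrays and replicate 3 was above them all, so the groups overlapped. The change of -0.77 ± 0.34 was not past the threshold (adjusted p = 0.0992). Without RepSox replicate 3 it was -1.56 ± 0.14 (adjusted p = 3.72e-09). Without RepSox replicate 1 it was -0.32 ± 0.33 and without replicate 2 -0.43 ± 0.36 (adjusted p = 0.543 and 0.431). A fall of Col1a1 was thus called only with the opposing array left out or with arrays weighted.

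Col3a1 encodes type III collagen, which runs beside type I in stretchable tissues. Its level was 9.61, 9.87 and 10.10 in RepSox-treated fibroblasts, against 10.45, 10.63 and 10.71 in untreated fibroblasts. The groups did not overlap, and Col3a1 fell by 0.73 ± 0.10 on the log2 scale (adjusted p = 1.10e-06). The call was lost when the dim V6.5 arrays were put into the fit (adjusted p = 0.0538).

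Type V chains help to start type I fibrils and limit their width. Col5a1 read 11.83, 11.74 and 12.00 in RepSox-treated fibroblasts, against 12.46, 12.55 and 12.64 in untreated fibroblasts. Col5a2 read 7.04, 6.83 and 6.55 in RepSox-treated fibroblasts, against 8.30, 8.24 and 8.40 in untreated fibroblasts. In both, all treated arrays were below all untreated ones. Col5a1 fell by 0.69 ± 0.14 (adjusted p = 0.000293) and Col5a2 by 1.51 ± 0.12 (2.84-fold; adjusted p = 1.16e-10).

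Fibrillar genes best known from cartilage followed the same direction where they were called. Col2a1, the chain of type II collagen, read 5.83, 6.01 and 6.48 in RepSox-treated fibroblasts, against 7.16, 6.87 and 7.45 in untreated fibroblasts. The groups did not overlap, and Col2a1 fell by 1.05 ± 0.19 (adjusted p = 9.48e-05). Col11a1, a type XI chain, was detected on 0 of 3 treated and 3 of 3 untreated arrays, at least 1.26-fold lower in the treated group (adjusted p = 6.33e-08). Such a bound is the mean of the group that detected the gene over the weakest detected signal on each array of the group that did not, or the gene's own signal where that was higher. Col11a2 (-0.16 ± 0.14) and Col24a1 (-0.05 ± 0.11), a minor fibrillar collagen, did not pass the threshold.

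**Figure D3:**
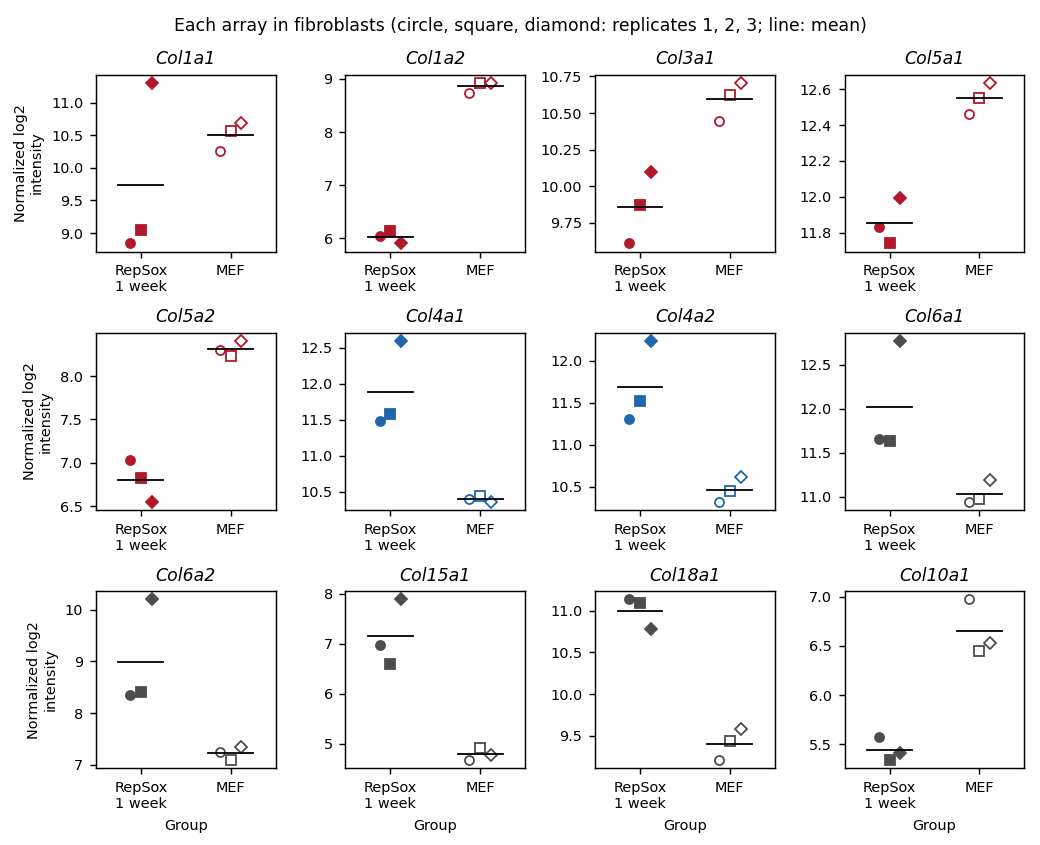
Normalized log2 intensity of 12 collagens on each array of RepSox-treated fibroblasts (left, filled) and untreated fibroblasts (right, open), with the mean as a line. Each panel has its own axis. Replicate 3 (diamond) of the treated group lies apart in Col1a1, Col4a1, Col6a1 and Col6a2.

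Col4a1 and Col4a2, the chains that join into the type IV network of nearly every basement membrane, rose together. Col4a1 read 11.49, 11.58 and 12.59 in RepSox-treated fibroblasts, against 10.39, 10.44 and 10.36 in untreated fibroblasts. Col4a2 read 11.31, 11.52 and 12.23 in RepSox-treated fibroblasts, against 10.32, 10.45 and 10.62 in untreated fibroblasts. All treated arrays exceeded all untreated ones in both genes, and replicate 3 was the highest. Col4a1 rose by 1.49 ± 0.21 (adjusted p = 3.64e-06) and Col4a2 by 1.22 ± 0.15 (adjusted p = 4.30e-07); with the V6.5 arrays in the fit the call of Col4a2 was lost (adjusted p = 0.315).

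The chains of restricted basement membranes went separate ways. Col4a5, a chain of the kidney filter and of smooth muscle and skin basement membranes, read 7.81, 8.03 and 8.21 in RepSox-treated fibroblasts, against 8.76, 8.66 and 8.97 in untreated fibroblasts. The groups were apart, and Col4a5 fell by 0.79 ± 0.11 (adjusted p = 1.23e-06). Col4a6, its partner in smooth muscle and skin, was detected on 3 of 3 treated and 0 of 3 untreated arrays, at least 1.32-fold higher in the treated group (adjusted p = 2.29e-05). Without the detection filter another Col4a6 probe, with a higher mean, stood for the gene, and its change was -0.01.

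Several collagens that lie beside or within basement membranes also rose. Col15a1 is a multiplexin, a collagen with an interrupted helix that sits at the basement membranes of muscle and capillaries. It read 6.98, 6.60 and 7.88 in RepSox-treated fibroblasts, against 4.66, 4.92 and 4.78 in untreated fibroblasts, where 2 of 3 arrays detected it. The gap between the groups was wide and Col15a1 rose by 2.36 ± 0.17 (5.15-fold; adjusted p = 1.81e-11). Col18a1, the other multiplexin, whose released end is endostatin, read 11.14, 11.09 and 10.79 in RepSox-treated fibroblasts, against 9.20, 9.43 and 9.58 in untreated fibroblasts. The groups did not overlap, and Col18a1 rose by 1.60 ± 0.15 (3.04-fold; adjusted p = 1.78e-09). Its 3 measured probes all rose and were each called.

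Col6a1 and Col6a2 chains form beaded filaments between cells and fibrils. Col6a2 read 8.35, 8.40 and 10.20 in RepSox-treated fibroblasts, against 7.24, 7.08 and 7.35 in untreated fibroblasts. Replicate 3 was far above the other treated arrays, which themselves exceeded all untreated ones, and Col6a2 rose by 1.76 ± 0.26 (adjusted p = 4.61e-06). Col6a1 rose by 0.99 ± 0.19 (adjusted p = 0.000222), a call lost when the fit held only these groups (adjusted p = 0.0655) or the V6.5 arrays as well (adjusted p = 0.247). Col19a1, a minor fibril-associated collagen, was detected with RepSox alone, at least 1.11-fold above untreated cells (adjusted p = 5.88e-05).

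Of the other collagens, 4 fell. Col10a1, the network collagen of hypertrophic cartilage, read 5.58, 5.34 and 5.41 in RepSox-treated fibroblasts, against 6.97, 6.45 and 6.53 in untreated fibroblasts. The groups were well apart, and Col10a1 fell by 1.21 ± 0.10 (adjusted p = 2.05e-10). Col16a1, which binds to the surface of fibrils, fell by the same rounded amount (1.21 ± 0.13). Col7a1, the anchoring fibril below the epidermis, fell by 0.86 ± 0.15, a call lost with the V6.5 arrays in the fit (adjusted p = 0.0779), and Col28a1, a relative of type VI found around peripheral nerve, fell by 0.81 ± 0.10. The 5 uncalled genes of this class had changes from -0.24 to 0.13.

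Among neighbouring collagen genes, with 0 protein-coding genes between them in the RefSeq table, Col3a1 and Col5a2 both fell, Col6a1 and Col6a2 both rose, as did Col4a1 and Col4a2, and Col4a5 and Col4a6 moved in opposite directions. Of the neighbours Col9a1 and Col19a1, Col19a1 rose and Col9a1 (-0.24) was not called, and the neighbours Col4a3 and Col4a4 were not measured. The promoter stretches below are examples from 2 genes that fell and 2 that rose, and the last line shows how close the starts of the type IV pair lie. They are 120 bases upstream of the RefSeq start (GRCm38.p6), 5′ to 3′ on the gene's strand: Col1a2 at chr6:4505498-4505617 (plus), Col3a1 at chr1:45311418-45311537 (plus), Col6a1 at chr10:76726045-76726164 (minus) and Col18a1 at chr10:77166531-77166650 (minus). Capitals mark 3 motifs: TATAAA, the common core promoter box; CCAAT, which binds nuclear factor Y; and CAGAC, the box to which SMAD proteins of TGF-beta signalling bind. Each was searched on both strands, with no letters shared between the matches in these lines. The last line is the stretch chr8:11312805-11312826 (plus strand), 22 bases that run from the start of Col4a2 on the plus strand to the start of Col4a1 on the minus strand, as the promoter table gives both. The gene table's outer bound of Col4a1 lies further along the plus strand. By either start of Col4a1 the 22 bases lie within both genes, downstream of each start, and are not an upstream stretch.
Col1a2: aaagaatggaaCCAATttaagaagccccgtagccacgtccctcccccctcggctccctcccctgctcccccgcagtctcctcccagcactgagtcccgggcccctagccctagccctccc
Col3a1: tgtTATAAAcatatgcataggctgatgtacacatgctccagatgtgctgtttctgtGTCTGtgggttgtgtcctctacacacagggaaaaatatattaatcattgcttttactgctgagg
Col6a1: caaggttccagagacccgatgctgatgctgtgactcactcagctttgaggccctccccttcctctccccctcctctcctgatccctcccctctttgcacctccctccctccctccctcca
Col18a1: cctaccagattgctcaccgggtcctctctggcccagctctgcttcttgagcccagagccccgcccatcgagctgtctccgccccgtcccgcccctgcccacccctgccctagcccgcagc
Col4a1 and Col4a2: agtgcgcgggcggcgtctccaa

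The CCAAT match of Col1a2 begins 109 bases before its start, and in Col3a1 the TATAAA match begins at 117 and the GTCTG match (CAGAC on the other strand) at 64 bases. The promoters of Col6a1 and Col18a1 hold none of these motifs in the stretch shown, and that of Col18a1 has a CCAAT match further upstream. Another Col18a1 entry, not shown, holds a CAGAC match within 250 bases. A GTCTG match begins at 35 bases both in Col5a1, which fell, and in an entry of Col6a2, which rose. The lines shown are thus no contrast between genes that fell and genes that rose. Over the 250 bases upstream of each start, 33 promoter entries of 30 collagen genes were found in the table. TATAAA was in 5 of them (15.2%, against 12.4% of 32851 entries of all genes), CCAAT in 12 (36.4%, against 33.8%) and CAGAC in 14 (42.4%, against 42.2%). These shares are near those of all promoters.

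Genes that make collagen ready for fibrils were mostly lower in RepSox-treated fibroblasts, read against 12.8% of all genes higher and 15.5% lower. Of 17 measured genes for folding and modification, 10 fell and 1 rose: the prolyl hydroxylase subunits P4ha3 and P4ha1 fell by 1.10 ± 0.08 and 1.15 ± 0.15, the lysyl hydroxylase Plod2 fell by 0.73 ± 0.13, and P3h2, a prolyl 3-hydroxylase, was at least 2.57-fold higher. All 3 measured genes of propeptide removal fell, the enhancers Pcolce by 1.41 ± 0.17 and Pcolce2 by 1.16 ± 0.14 and the protease Bmp1 by 0.64 ± 0.14. Of the 5 lysyl oxidases, which crosslink collagen, 4 fell and Loxl2 rose by 1.16 ± 0.11. Lox fell by 2.19 ± 0.12 (adjusted p = 6.10e-14), Loxl3 fell by 0.94 ± 0.08 and Loxl4 was at least 1.84-fold lower. Median log2 changes were -0.41 for folding and modification, -1.16 for propeptide removal and -0.94 for crosslinking, against -0.02 over all genes.

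Collagen receptors split: 2 of 6 rose and 3 fell. Itga11, the integrin chain that binds fibrillar collagen, fell by 1.76 ± 0.14, whereas Itga1, which prefers type IV collagen, rose by 0.73 ± 0.13 (adjusted p = 6.50e-05) and the receptor kinase Ddr1 by 0.55 ± 0.12. The uptake receptor Mrc2, detected on 1 of 3 treated and 2 of 3 untreated arrays, fell by 0.44 ± 0.12. Of 5 genes of collagen breakdown 4 fell, led by the protease Ctsk (2.07 ± 0.11 lower) and the collagenase Mmp13 (1.50 ± 0.16 lower). Mmp2 and Mmp14 fell by 0.57 ± 0.16 and 0.52 ± 0.16. The median log2 changes of the receptors and the breakdown list were -0.01 and -0.57.

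Markers of other cell types are read in the same comparison against 12.8% of all genes higher and 15.5% lower. All 4 measured adipocyte markers rose, with a summed linear level of 9219 to 13820 in RepSox-treated and 334.8 to 381.4 in untreated fibroblasts. Adipoq and Plin1 were undetected in untreated fibroblasts, and Adipoq was at least 222-fold higher with RepSox. Of 5 smooth muscle markers 3 rose, among them Myh11 by 4.30 ± 0.11, and their sum was 19130 to 20570 with RepSox and 15710 to 16660 without. Of 7 markers of primitive and parietal endoderm 3 rose and 2 fell (sum 3332 to 3599 with RepSox and 2173 to 2294 without). Of 4 endothelial markers 1 rose and 1 fell (149.9 to 172.7 and 110.7 to 114.6), with Pecam1 undetected in both groups, and of 3 chondrocyte markers 2 fell (67.73 to 75.86 and 93.05 to 111.2). Fibroblast markers summed to 14580, 13670 and 19970 in replicates 1 to 3 with RepSox and 10790 to 11770 without; 5 of 9 rose and 1 fell. The part of these marker changes in the collagen changes was not tested.

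OKMS6 cells gave a different picture. At 10 h 1 of 27 collagens rose with RepSox and 0 fell, against 12.6% of all genes called (7.27% higher and 5.35% lower). At 24 h 2 rose and 0 fell, against 24% (13% higher and 11% lower). At 48 h 1 rose and 3 fell, against 32.7% (15.8% higher and 16.9% lower). The higher share of all calls moved with median scaling, to 15.1% at 24 h (54.2% reported) and 35.5% at 48 h (48.4% reported). In each of these 6 OKMS6 groups 15 to 19 of the 27 collagens were detected on no array. At 10 h only Col18a1 was called. At 24 h the calls were Col17a1, a transmembrane collagen of hemidesmosomes, at least 1.25-fold higher, and Col7a1, at least 1.22-fold higher with 2 of 3 treated arrays detecting it (adjusted p = 0.0110 and 0.0377). Leaving out untreated replicate 2 at 24 h ended both calls (0 of 27), and leaving out other single arrays gave up to 3. With median scaling neither rose, and Col18a1 alone was called, lower (-0.50, adjusted p = 0.0451). The call of Col7a1 was lost in 12 of 20 alternatives.

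Col18a1 was the collagen that moved most in OKMS6 cells, and its RepSox effect differed between the times. At 10 h it read 6.93, 6.90 and 7.57 with RepSox, against 6.53, 6.63 and 6.67 in untreated cells. At 24 h it read 7.15, 7.02 and 6.86 with RepSox, against 7.28, 7.07 and 7.07 untreated, and at 48 h 6.71, 6.53 and 6.58 with RepSox, against 8.93, 8.92 and 9.27 untreated. Treated arrays were all slightly higher at 10 h, the groups overlapped at 24 h, and treated arrays were all far lower at 48 h.

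The change of Col18a1 was 0.52 ± 0.15 at 10 h (adjusted p = 0.0177) and -2.43 ± 0.15 at 48 h (5.40-fold lower; adjusted p = 8.21e-13). The call at 10 h rested on RepSox replicate 3, without which the change was 0.31 and the adjusted p 0.182; leaving out untreated replicate 1 also ended it (0.48, adjusted p = 0.0722). It was also lost with the mean of the gene's detected probes (0.21, adjusted p = 0.160), and the other 2 probes, detected on 7 and 14 of 30 arrays, gave 0.08 and 0.03 at 10 h and were not called. At 48 h the change was -2.30 ± 0.18 without both arrays numbered 3 (adjusted p = 6.68e-10). In the deposited processed table with its own column names no collagen was called at 48 h by limma (0 of 27, and 0 of all genes; Col18a1 changed by -0.61, adjusted p = 0.928), and without both arrays numbered 3 that table gave 5 calls. The 3 Col18a1 probes differed in size at 48 h, with changes of -2.43, -0.74 and -0.12, the last not past the threshold.

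The RepSox effect on 4 of 27 collagens differed between the 3 times by a moderated F test (against 26.1% of all genes): Col18a1 (adjusted p = 1.61e-10), Col5a2 (0.00168), Col7a1 (0.0205) and Col16a1 (0.0263). Relative to the effect at 10 h, that on Col18a1 differed by -0.66 ± 0.21 at 24 h and by -2.96 ± 0.21 at 48 h. By the other Col18a1 probes the adjusted p was 0.0346 and 0.554, the second not past the threshold. Col5a2 and Col16a1 were detected on 0 of 6 arrays at 10 h, so their differences set the 48 h effect against background and get no size. Without both 48 h arrays numbered 3 the count was 3.

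**Figure D4:**
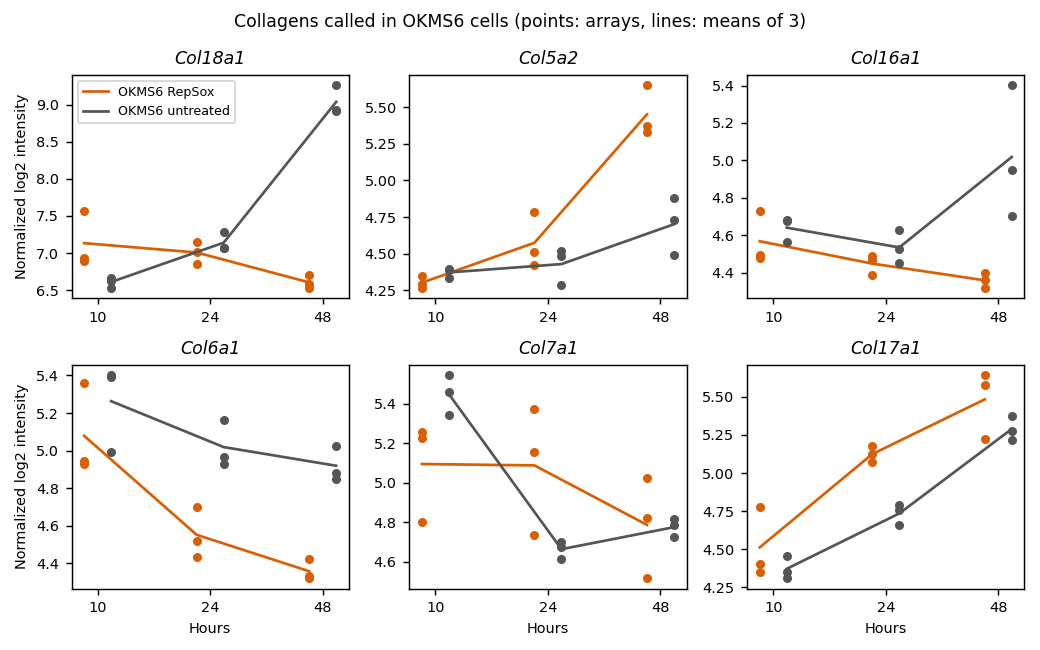
Normalized log2 intensity of 6 collagens in OKMS6 cells at 10, 24 and 48 h with RepSox (orange) and untreated (grey), points for arrays and lines for means of 3 arrays. Each panel has its own vertical axis, and the times are evenly spaced on the horizontal one. Untreated Col18a1 stands near 9 at 48 h while treated arrays stay below 7.

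At 48 h, Col5a2 read 5.33, 5.65 and 5.37 with RepSox, against 4.49, 4.73 and 4.88 in untreated OKMS6 cells. All treated arrays exceeded all untreated ones, and Col5a2 rose by 0.75 ± 0.12 (adjusted p = 1.83e-05), opposite to its fall in fibroblasts. Col16a1 read 4.32, 4.36 and 4.40 with RepSox, against 4.95, 4.70 and 5.40 untreated, and was detected on 0 of 3 and 2 of 3 arrays. It was at least 1.18-fold lower with RepSox (adjusted p = 0.000303). Col6a1, detected on 0 of 3 treated and 3 of 3 untreated arrays, was at least 1.10-fold lower (adjusted p = 0.0260). That call was lost without both arrays numbered 3 (adjusted p = 0.104) and without any of 4 single arrays, namely untreated replicate 2 or 3 or RepSox replicate 1 or 3 (adjusted p of 0.0506 to 0.0885). Of the fibroblast type I and III genes, Col1a1, Col1a2 and Col3a1 were detected on no 48 h array, and Col4a1 (0.36 ± 0.21) and Col4a2 (0.35 ± 0.15) did not pass the threshold.

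Folding, propeptide and receptor genes had more genes lower than higher with RepSox in OKMS6 cells at 48 h, while 16 of 27 collagens were undetected in each group. Over all genes 15.8% were higher and 16.9% lower. Of 17 folding and modification genes 9 fell and 0 rose, with Plod3 down by 1.29 ± 0.11, P3h3 by 0.85 ± 0.16, P4hb by 0.55 ± 0.11 and P4ha1 by 0.59 ± 0.15. Pcolce fell by 1.61 ± 0.17 and Pcolce2 by 0.77 ± 0.14, so 2 of 3 genes of propeptide removal fell. Of 5 lysyl oxidases 2 fell, Loxl4 by 0.90 ± 0.13 and Loxl2 by at least 1.23-fold. Of 6 receptors 4 fell, with Itga1 at least 1.97-fold lower and Ddr1 down by 0.73 ± 0.12, and of 5 breakdown genes 2 fell, Mmp14 by 1.19 ± 0.16 and Mmp2 by 0.64 ± 0.16. The median changes were -0.34, -0.77, -0.27, -0.63 and -0.04 in this order, against 0.00 over all genes. Without both arrays numbered 3, 7 of 17 folding and modification genes fell, the other pathway counts were as given, and with the names of the deposited processed table no gene was called at 48 h (0 of 10614).

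Counts in the marker lists at 48 h are read against 15.8% of all genes higher and 16.9% lower. Of 4 endothelial markers 2 fell. Pecam1 fell by 3.76 ± 0.14 and Esam fell by 1.69 ± 0.12, and the list summed to 358.9 to 411.9 with RepSox and 907.4 to 1064 untreated. Of 7 endoderm markers 2 fell (200.5 to 207.6 with RepSox and 411.6 to 553 untreated). Of 9 fibroblast markers 1 rose and 1 fell (1112 to 1139 with RepSox and 933.7 to 1061 untreated). Of 5 smooth muscle markers 1 rose, Acta2 by 2.14, and 1 fell, Mylk by at least 4.79-fold (1286 to 1350 and 437.4 to 516.1). Of 10 stem cell markers 4 rose and 3 fell (2323 to 2999 and 3757 to 5072). Nanog rose by 2.85 and Eras by 2.34, whereas Tdgf1 fell by 2.73 and Pou5f1 by 1.10. Linear sums weigh the brightest genes most and do not show how a list moved as a whole. Adipocyte markers (0 of 4) and chondrocyte markers (0 of 3) were detected in neither group. Without both arrays numbered 3 the fibroblast list had 0 higher and 1 lower, and the other counts were as given. The part of these lists in the collagen changes was not tested.

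Untreated OKMS6 cells changed with time in 6 of 27 collagens by the F test, against 45% of all genes. Relative to 10 h, Col18a1 was higher by 0.53 ± 0.15 at 24 h and by 2.43 ± 0.15 at 48 h (adjusted p = 2.61e-12). By its other probes the adjusted p was 0.000213 and 0.673, the second not past the threshold. Col17a1 was detected on 0 of 3 arrays at 10 h and at 24 h and on 3 of 3 at 48 h, at least 1.31-fold above 10 h (adjusted p = 1.05e-06), and Col5a1 was lower by both times, with differences of -0.48 ± 0.14 and -0.80 ± 0.14 (adjusted p = 0.000155). Col7a1 and Col25a1, a transmembrane collagen best known from neurons, were detected on 3 of 3 arrays at 10 h, on 0 at 24 h and on 2 and 1 at 48 h. Col16a1 was detected on 0, 0 and 2 of 3 arrays at 10, 24 and 48 h. Untreated endothelial marker sums were 662.6 to 674.2 at 10 h, 726.9 to 835.8 at 24 h and 907.4 to 1064 at 48 h. Untreated endoderm marker sums at these times were 528.6 to 608, 293.7 to 333.1 and 411.6 to 553. With RepSox at 48 h, 2 of 4 endothelial and 2 of 7 endoderm markers fell, against 16.9% of all genes. The part of either list in the course of Col18a1 was not tested.

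The RepSox effect in fibroblasts at 1 week was then set against that in OKMS6 cells at 48 h, though exposure time and cell type cannot be told apart here. The effects differed for 19 of 27 collagens, with the change greater in fibroblasts for 8 and smaller for 11, against 33.3% of all genes (16.4% and 16.9%). With median scaling the collagen counts were 7 and 8, and the greater share of all calls was 68.1% (49.2% reported). The difference was 4.04 ± 0.21 for Col18a1 (adjusted p = 2.90e-14), which rose in fibroblasts and fell in OKMS6 cells. It was -2.26 ± 0.17 for Col5a2 (adjusted p = 5.03e-11), the other way round. For Col6a1 it was 1.55 ± 0.27, but no RepSox-treated OKMS6 array at 48 h detected the gene, so background limits that size. The other Col6a1 probes gave 0.98 and 0.87, both called. Of the 19, 10 were detected on no OKMS6 array at 48 h, so that their difference is the fibroblast change set against background: Col1a2, Col3a1, Col4a5, Col4a6, Col6a2, Col10a1, Col11a1, Col15a1, Col19a1 and Col28a1. The other 9 were detected on at least 1 of these 6 arrays. All 3 Col18a1 probes gave a called difference (0.83, 2.34 and 4.04). Without both 48 h arrays numbered 3 the count was 20.

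**Figure D5:**
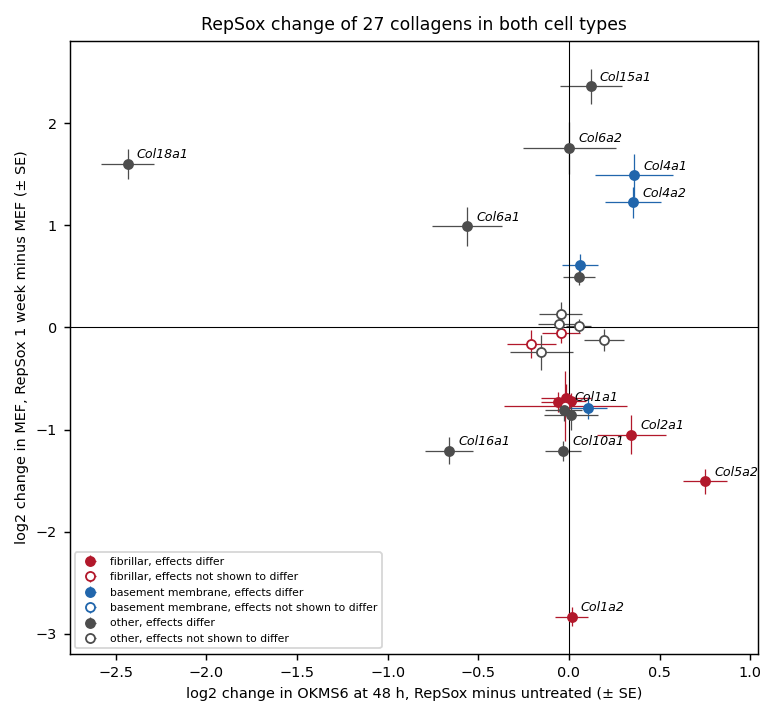
Log2 change with RepSox in fibroblasts at 1 week (vertical) against that in OKMS6 cells at 48 h (horizontal) for the 27 measured collagens, with bars for ± SE, filled where the 2 changes differed at an adjusted p under 0.05. Col18a1 lies at -2.43 and 1.60 and Col5a2 at 0.75 and -1.51, in opposite corners.

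Untreated OKMS6 cells, averaged over the 3 times, had 20 of 27 collagens lower and 1 higher than untreated fibroblasts, against 71.7% of all genes called (38.8% higher and 32.8% lower). Of all genes called, 54.2% were higher, and 75.7% with median scaling in place of quantile normalization. Of the collagens called lower, Col4a6, Col10a1, Col11a1, Col15a1, Col24a1 and Col28a1 were detected on fibroblast arrays alone, treated or untreated. They passed the detection filter only through fibroblasts, so the count is no support for a direction. Fibrillar genes fell in 8 of 9 cases. Col1a1, Col1a2 and Col3a1 were detected on 0 of 9 untreated OKMS6 arrays. The bounds on their differences were at least 51.9-fold lower for Col1a1, 16.6-fold for Col1a2 and 55.2-fold for Col3a1. Col5a1 was detected on all 9 arrays, yet at 5.58 its mean was far below the 12.55 of fibroblasts (change -6.97 ± 0.11, adjusted p = 1.93e-26). Col4a2 was at least 50.4-fold lower, and Col4a1 was detected on 1 of 9 arrays. With its 8 others taken at no less than the weakest detected signal, Col4a1 was 48.1-fold lower. Col17a1 alone was higher (0.39 ± 0.09), with 3 of 9 OKMS6 arrays detecting it and the groups overlapping. The other genes called lower were Col2a1, Col5a2, Col11a1 and Col24a1 (fibrillar), Col4a5 and Col4a6 (basement membrane) and Col6a1, Col6a2, Col7a1, Col10a1, Col15a1, Col16a1 and Col28a1; Col4a6 was undetected in both groups and gets no fold. Col18a1 was lower by 1.81 on the log2 scale over the 3 times together, although its 48 h arrays overlapped with those of fibroblasts. Its other probes gave -0.16 and -0.13 and were not called.

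R1 embryonic stem cells had less RNA of most fibrillar collagens than fibroblasts, and of the type IV pair Col4a2 was lower and Col4a1 was not called. Relative to untreated fibroblasts 4 of 27 collagens were higher and 15 lower, against 70.1% of all genes called (35.9% higher and 34.3% lower). The higher share of all calls was 51.1%, and 72.2% with median scaling. Col10a1, Col11a1, Col24a1 and Col28a1, called lower, were detected on fibroblast arrays alone, and Col26a1, called higher, on stem cell arrays alone. These genes passed the detection filter only through the side where they were high, so neither count is support for a direction. Col4a1 read 9.95, 9.74 and 10.11 in R1 cells, against 10.39, 10.44 and 10.36 in fibroblasts, and was not called. Col4a2 read 9.07, 9.07 and 9.23 in R1 cells, against 10.32, 10.45 and 10.62 in fibroblasts. R1 arrays were below fibroblast arrays in both genes, and Col4a2 was lower by 1.34 on the log2 scale (SE 0.15, adjusted p = 1.51e-08). Median scaling moved that to -0.16 (adjusted p = 0.295) while it moved the median over all genes to 0.52, against -0.01.

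Col18a1 read 10.29, 10.31 and 10.57 in R1 cells, against 9.20, 9.43 and 9.58 in fibroblasts, and was higher in R1 (0.99 ± 0.15, adjusted p = 1.29e-06). Of the fibrillar genes, 8 of 9 were lower in R1. Col1a1 read 6.14, 5.86 and 6.52 in R1 cells, against 10.25, 10.57 and 10.69 in fibroblasts, and was lower on every array. Col5a1 read 8.60, 8.85 and 8.95 in R1 cells, against 12.46, 12.55 and 12.64 in fibroblasts, and was also lower on every array (-3.75 ± 0.14). No R1 array detected Col1a2 or Col5a2, at least 18.1-fold lower for Col1a2 and 12.3-fold for Col5a2. Col2a1, Col3a1, Col11a1, Col24a1, Col4a5, Col6a1, Col6a2, Col10a1, Col16a1 and Col28a1 were the others called lower. Col9a2, a chain of cartilage type IX, was at least 1.50-fold higher in R1, and Col17a1 and Col26a1 were the other genes called higher. Col17a1 was detected on 1 of 3 R1 arrays, and its call was lost in 3 of 20 alternatives. The other Col17a1 probe gave 0.19 and was not called.

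Untreated OKMS6 cells had 12 of 27 collagens lower and 0 higher than R1 cells, against 65.3% of all genes called (34.1% higher and 31.2% lower). With median scaling 12 were lower and 5 higher. The largest differences were in the type IV pair, with Col4a1 34.9-fold lower by the same reading of its 8 undetected arrays and Col4a2 at least 19.9-fold lower. Col5a1 was lower by 3.23 (SE 0.11) and Col18a1 by 2.79 (SE 0.12). Col1a1, Col2a1, Col3a1, Col6a1, Col7a1, Col9a2, Col16a1 and Col26a1 made up the rest. Col3a1 was detected on no untreated OKMS6 array and on 2 of 3 R1 arrays, and its other probe gave -0.09 and was not called. The other Col6a1 probes gave -1.84, which was called, and -0.05, which was not. Col26a1 was detected on stem cell arrays alone and passed the detection filter only through them. In their fibroblast markers, untreated OKMS6 arrays summed to 933.7 to 1769 and R1 arrays to 1153 to 1346, against 10790 to 11770 in fibroblasts.

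V6.5 arrays are given one by one. Replicate 2, with a signal like that of R1, read 9.87 for Col4a1, 9.77 for Col4a2, 9.96 for Col18a1, 9.97 for Col5a1 and 7.70 for Col1a1. The dim replicates 1 and 3 read 5.65 and 4.46 for Col4a2 and 4.41 and 4.44 for Col1a1, with neither gene detected, but 7.68 and 8.16 for Col3a1 and 6.88 and 6.75 for Col1a2, against 6.28 and 5.35 in replicate 2. Collagens detected numbered 8, 18 and 7 of 27 in replicates 1 to 3. The replicates disagreed on which collagens were high.

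The iPS line was measured on a platform of its own, on which 35 of the 37 genes had a probe and 37 collagens in all did. Of those 37, 21 were detected on all 3 arrays, among them 6 of 10 fibrillar, 3 of 6 basement membrane and 12 of 21 other genes. These levels are set beside no other group, since the platform differs along with the cells and the effects cannot be told apart. Col18a1 averaged 11.99 ± 0.23, Col4a1 9.72 ± 0.12 and Col4a2 11.26 ± 0.13 (SD, n = 3). Col1a1 averaged 9.76 ± 0.21, Col3a1 8.54 ± 0.17 and Col5a1 11.50 ± 0.17, and Col5a2 was detected on no array. All 10 fibroblast markers and all 9 stem cell markers on that platform were detected on every iPS array. Feeder fibroblasts may have been in these cultures per the labels, and the part of such cells in the collagen levels was not tested.

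Across the 9 group means of the fit, the collagens whose pattern was most like that of Col1a1 were Col16a1 (Pearson's r of 0.994), Col5a1 (0.987), Col3a1 (0.982) and Col6a1 (0.982). The 10 measured genes of any kind most like it were Ccn5, Hoxc6, Smim3, Fst, Hoxb7, Zfpm2, Tagln, Fgf7, St3gal5 and Cxcl12, with r of 0.996 to 0.999. These values describe 9 points, of which the 2 fibroblast groups are high for all these genes, and no test was made. Col17a1 (-0.59) was the collagen most unlike Col1a1.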

How the data were processed

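Total RNA of cells grown on gelatin, with or without feeders, was extracted with Trizol, labelled with an Ambion kit and hybridized to Illumina bead arrays, per the labels' protocols. The submitters' processing notes name BeadStudio, with no version. For each platform the authors deposited linear intensity values and a detection p-value per probe, plus a processed series table of intensity. Of its 30 columns 28 fitted best to the scanner column that bears their name, and the 2 others, replicate 3 of both OKMS6 groups at 48 h, were exchanged. Scanner values under their own names were used.

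With limma 3.58.1 in R 4.3.3, the 30 arrays were background corrected and quantile normalized by neqc (offset 16, background from detection p). Probes detected (p under 0.05) on at least 3 arrays were kept, 15635 of 25697, and a gene was read from its probe of highest mean. Levels of iPS arrays (24613 probes) were normalized separately. Linear models covered 27 arrays in 9 groups without V6.5 (18 residual degrees of freedom), with two-sided moderated tests, F tests over times, and Benjamini-Hochberg adjustment over 10614 genes. Errors of changes are SE. Names are those of GEO's platform annotation; Entrez identifiers of all 37 members were found in a RefSeq table (GRCm38.p6), with 0 symbols changed. The scripts were tested on simulated data.

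The members and lists were chosen with earlier results of these data known. Members past the threshold in a comparison are named, with array values for at most the 4 largest changes of a class and for types I, III, V and the common type IV chains; pathway lists name at most 4 genes by adjusted p, and the 10 genes most correlated with Col1a1 are listed. Same-numbered arrays of RepSox-treated and untreated OKMS6 cells at 48 h deviated together (correlations of 0.225, 0.101 and 0.338 across genes). The numbers may pair them there, but no label says so. Other pairs did not all exceed 0.1, and the reported tests used no pairing. Alternatives tried were no background correction, median scaling, offset 50, no or a stricter detection filter, the mean of a gene's probes, all 30 arrays or V6.5 replicate 2 in the fit, only the groups compared, array weights, a replicate block, the series table, and leaving arrays out.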

Additional observations from a re-analysis of the deposited data

Results flagged for a closer look

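In each of 19 collagens the RepSox effect in fibroblasts at 1 week differed from that in OKMS6 cells at 48 h by the test of the difference itself in limma. As log2 differences, fibroblasts minus OKMS6, fibrillar genes gave -2.85 for Col1a2, -1.40 for Col2a1, -0.68 for Col3a1, -0.68 for Col5a1, -2.26 for Col5a2 and -0.73 for Col11a1. Basement membrane genes gave 1.13 for Col4a1, 0.87 for Col4a2, -0.89 for Col4a5 and 0.55 for Col4a6. The other collagens with a greater change in fibroblasts were Col6a1 (1.55), Col6a2 (1.76), Col15a1 (2.24), Col18a1 (4.04) and Col19a1 (0.44). Those with a lower change were Col7a1 (-0.87), Col10a1 (-1.18), Col16a1 (-0.55) and Col28a1 (-0.78). The call of Col16a1 was lost in 9 of 26 alternatives, and those of Col7a1 and Col4a2 in 3 of 26 each. Of these 19, 10 were detected on no OKMS6 array at 48 h, namely Col1a2, Col3a1, Col4a5, Col4a6, Col6a2, Col10a1, Col11a1, Col15a1, Col19a1 and Col28a1, and their values set the fibroblast change against background. Col6a1 and Col16a1 were detected on no RepSox-treated OKMS6 array at 48 h, and Col2a1, Col4a1 and Col4a2 on no untreated one. Background thus also limits the sizes of these differences.

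Within OKMS6 cells the RepSox effect differed between 10, 24 and 48 h, by the moderated F test, for Col5a2 (adjusted p = 0.00168), Col7a1 (0.0205), Col16a1 (0.0263) and Col18a1 (1.61e-10). Col5a2 and Col16a1 were detected on 0 of 6 arrays at 10 h.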

How the results depend on the processing

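The fibroblast comparison gave 15 to 21 called collagens over 14 alternatives and 19 to 20 with any 1 array left out, and the stem cell, fibroblast and untreated OKMS6 comparisons kept their counts within 1.5 times of those reported: the effect difference 13 to 21 and 18 to 20 with an array left out, untreated OKMS6 against fibroblasts 17 to 23 and 20 to 22, R1 against fibroblasts 16 to 22 and 19, and untreated OKMS6 against R1 10 to 17 and 11 to 13. Small counts in OKMS6 cells moved. At 10 h, 1 call became 0 with median scaling, the mean of detected probes, all 30 arrays, only the groups compared or the series table, and 3 with array weights (0 to 2 with an array left out). At 24 h, 2 calls became 0 without background correction or with all 30 arrays, 1 with median scaling, offset 50, no filter or the series table, 4 with the replicate block or the series table without both 48 h arrays numbered 3, and 5 with array weights (0 to 3). At 48 h, 4 calls became 7 with array weights and 0 with the series table, whose columns are exchanged (3 to 5). Without both arrays numbered 3 they were again 4, 2 higher and 2 lower, of which 3 were shared: Col5a2 rose by 0.88 and Col16a1 fell by 0.49. The pathway counts without these arrays were added after the data were seen. Effects differing between OKMS6 times, 4 in all, became 2 with offset 50 or all 30 arrays, 7 with array weights and 0 with the series table (3 to 5). Untreated OKMS6 cells between times, 6 calls, gave 3 with all 30 arrays (5 to 7). At 48 h, where replicate numbers may pair the arrays, the replicate block kept all 4 calls, and apart from 24 h it changed no count by over 1.5 times. Without the detection filter another probe stood for Col4a6, and its changes were -0.00955 in fibroblasts with RepSox and 0.0665 in untreated OKMS6 cells against fibroblasts. Counts over all genes moved most with all 30 arrays in the fit, with array weights and, at 48 h, with the series table: for RepSox in fibroblasts 1608 to 4239 genes (3001 reported), at 10 h 412 to 2773 (1340), at 24 h 974 to 4941 (2546), at 48 h 0 to 4587 (3476), between OKMS6 times 201 to 5257 (2772), untreated between times 2125 to 6505 (4772) and the effect difference 1194 to 4837 (3537). With median scaling the median over all genes became 0.52 (R1) and 0.42 (untreated OKMS6) against fibroblasts, and -0.18 for RepSox at 24 h; collagen calls were then 5 higher and 17 lower, 1 and 22, and 0 and 1. In untreated OKMS6 against R1 they were 5 higher and 12 lower. Where other causes are not given, the cause was not tested. Signals near background limit what the OKMS6 arrays can show: 19 of 27 collagens were detected on no untreated array at 10 h.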
